A study of Arabidopsis thaliana with 22 samples.

Results

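The 40 genes described here are a chosen set of nuclear genes of Arabidopsis thaliana that encode antenna proteins and subunits of the photosystems. The set is not a full list of such genes. They were listed by locus and not filtered on a measured value, but the list was drawn up with earlier results of these data known. Of these, 12 genes encode antenna proteins of photosystem II (LHCB) and 6 encode antenna proteins of photosystem I (LHCA). A further 12 encode subunits of photosystem I (PSA) and 10 encode subunits of photosystem II (PSB). All 40 loci were found among the 27444 nuclear protein-coding genes of the annotation. Chromatin immunoprecipitation sequencing had measured 2 histone marks, H3K4me3 and H3K27me3, in 4 kinds of tissue with 2 biological replicates each, which gave 8 libraries for each mark. Apex t0 was the dissected, untreated cauliflower structure of the main inflorescence of ap1 cal 35S::AP1-GR plants. Apex t2 was the same tissue of the same genotype 2 days after 10 µM dexamethasone was pipetted onto it. Inflorescence was the whole main inflorescence of wild type (Ler) plants without flowers older than stage 12, and leaf was the rosette leaf of flowering wild type (Ler) plants. All lines were in the Ler background and grew in long days.

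The ap1 cal apices hold proliferating inflorescence and floral meristems. Dexamethasone moves the AP1-GR fusion protein into the nucleus, and the 35S promoter that drives the fusion is active in most tissues. Both apex groups carried the ap1-1 and cal-1 alleles and the transgene, which leaf and inflorescence did not, and 15 µg of apex chromatin was used against 10 µg of wild type chromatin. The labels list input samples, the controls, for apex t2 and inflorescence only. Genotype, chromatin amount, control sample and tissue therefore cannot be told apart between the apices and the wild type tissues. The samples were bulk tissue, so fewer cells with a mark and less of the mark per cell cannot be told apart either.

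The photosystems are the pigment-protein complexes of the thylakoid membrane that turn light into electron flow. Their reaction-centre cores are largely encoded in the chloroplast genome, whereas the light-harvesting proteins and most peripheral subunits are encoded in the nucleus and imported. H3K4me3 marks the transcribed beginning of active genes in plants, and H3K27me3 is laid down by Polycomb complexes over genes that are kept silent. Green leaf cells express the photosystem genes strongly, while meristem cells contain proplastids with little thylakoid membrane.

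Each library came as a list of islands, stretches of the genome in which the immunoprecipitated reads exceeded the control, called by the authors library by library. Controls were shared between libraries. For H3K4me3, apex t0 and apex t2 had 9012 islands with identical control reads in replicate 1 and 8596 in replicate 2. Inflorescence and leaf had 6217 and 5572 such islands. A gene counted as marked when 200 bp or more of its body lay inside islands. Its level was taken as the island reads lying in the body, per 1000000 such reads over the genes tested (RPM). Libraries held between 6635471 and 23673881 island reads for H3K4me3 and between 3779918 and 19379225 for H3K27me3. A gene without an island lay below the calling threshold, which does not show that the mark was absent. Replicate 1 and replicate 2 differed in sonication, antibody lot and sequencing, and same-numbered libraries shared these features.

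The tissue labels were set against marker genes. The 4 meristem markers STM, KNAT1, ANT and CUC2 had summed H3K4me3 levels of 307 and 383 RPM in apex t0, 334 and 363 RPM in apex t2 and 112 and 190 RPM in inflorescence, and none of the 4 had an island in leaf. CUC2 also lacked an island in inflorescence. The 4 floral organ markers AP3, PI, SEP3 and AG summed to 0 and 11.6 RPM in apex t0, where only PI had an island, to 29.5 and 86.1 RPM in apex t2 without AG, to 103 and 202 RPM in inflorescence, and had none in leaf. The 2 leaf markers RBCS1A and RCA summed to 160 and 141 RPM in apex t0, 158 and 148 RPM in apex t2, 290 and 224 RPM in inflorescence, and 387 and 288 RPM in leaf. The leaf markers thus lay lower in both apices than in inflorescence and leaf, as most photosystem genes below did. They were also lower in inflorescence than in leaf in both replicates, which the photosystem genes were in replicate 1 only. The part of tissue makeup in those results was not tested.

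H3K4me3 lay over nearly all of the 40 genes everywhere. It was present in both replicates at 39 of the 40 genes in apex t0 and in apex t2, and at all 40 in inflorescence and leaf. Among all nuclear genes the share marked in both replicates was 60.2% in apex t0, 60.4% in apex t2, 58.8% in inflorescence and 57.0% in leaf. The exception was LHCB2.3, described below. Some islands over LHCB1 and LHCB2 genes were weak for their library. The authors' fold over control was 1.49 for LHCB1.1 in apex t2 replicate 2, at the 2.66th percentile of islands. It was 1.81 for LHCB1.2 in inflorescence replicate 1, at the 1.8th percentile. Over all members the median percentile lay between 41.5 and 75.4 across libraries. The genes are short, with a median body of 1374 bp against 2078 bp over all genes, and the islands covered most of them: the median covered share was 83.5% and 84.2% in the apex t0 replicates, 82.7% and 80.0% in apex t2, 91.1% and 91.4% in inflorescence and 100% and 99.03% in leaf. Over all genes tested that median lay between 33.7% and 43.2%. Islands that also reached a neighbouring gene covered 46.2% and 43.6% of the marked genes in the apex t0 libraries, 43.6% and 41.0% in apex t2, 52.5% in both inflorescence libraries and 60.0% and 62.5% in leaf.

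Levels per kb of gene body differed between the members by several fold. Among the LHCB genes LHCB5, which encodes the minor antenna protein CP26, had the highest mean at 70.6 ± 14.0 RPM per kb (SD over all 8 libraries), and LHCB2.3 had the lowest at 12.2 ± 14.1. Among the LHCA genes LHCA4 was highest at 59.8 ± 14.0 RPM per kb and LHCA2 lowest at 36.9 ± 22.7. PSAF, which encodes the subunit that docks plastocyanin, led the photosystem I subunits at 71.3 ± 15.5 RPM per kb, and PSAE2, for a subunit on the ferredoxin side, was lowest at 42.9 ± 7.37. PSBR, an extrinsic protein near the oxygen-evolving complex, led the photosystem II subunits at 67.3 ± 12.2 RPM per kb, and PSBS, the sensor of photoprotective quenching, was lowest at 29.7 ± 4.68. Islands covered between 37.4% and 49.9% of the PSBS body, and the value per kb divides by the whole body. Before that division PSBS ranged from 75.9 to 115 RPM, while PSBX, at 60.7 RPM per kb, ranged from 37.7 to 51.4 RPM. By fold over control the PSBS islands lay between the 56.7th and the 99.5th percentile of their libraries, so PSBS was not weakly marked. The SDs include the differences between tissues that follow.

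**Figure D1:**
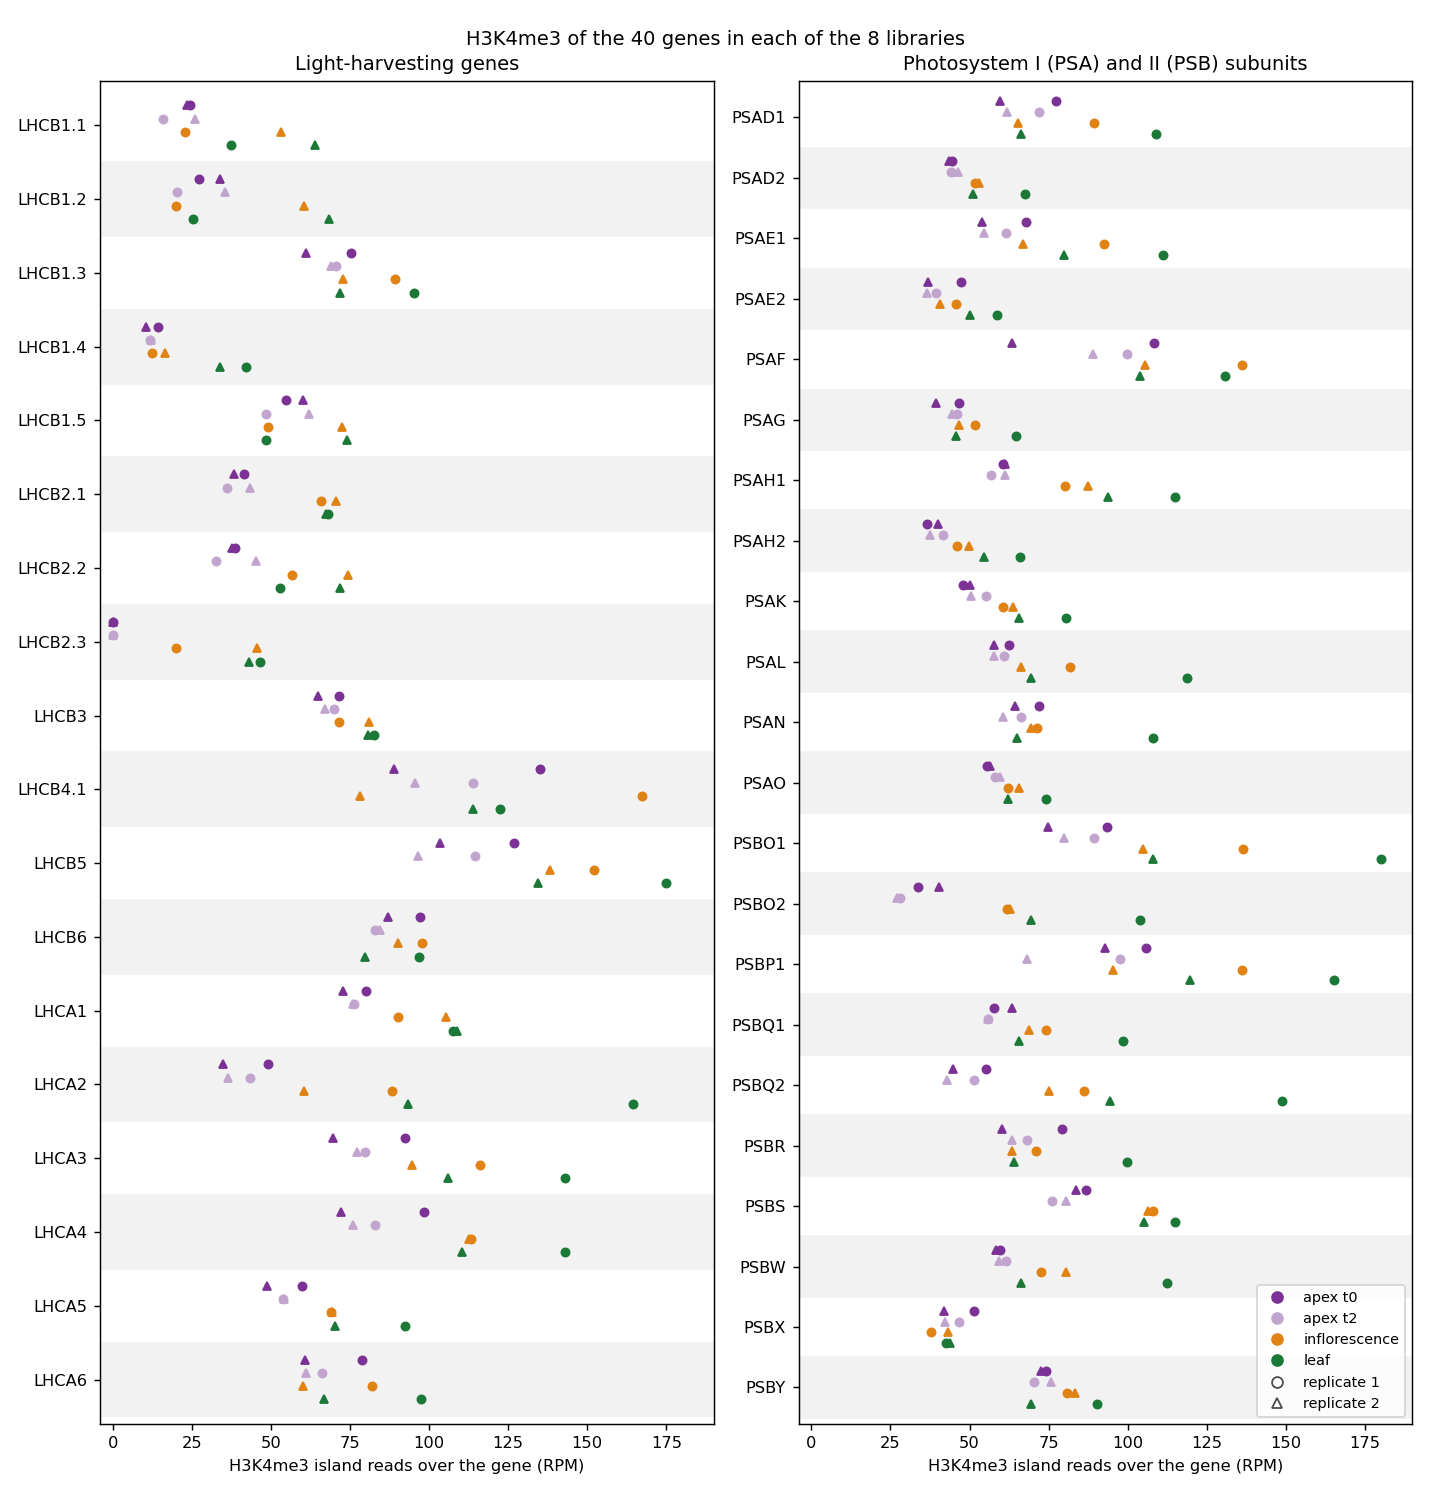
H3K4me3 island reads over each of the 40 genes (RPM, horizontal axis) in every library, with light-harvesting genes on the left and photosystem subunits on the right. Colours are tissues and symbols are replicates; LHCB2.3 sits at 0 in all apex libraries, and LHCA2 reaches 165 RPM in leaf replicate 1 against 34.9 to 49.0 RPM in apex t0.

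Apex t0 was compared with leaf to ask how the marks differ between a meristem-rich tissue and a mature organ. H3K4me3 was lower in apex t0 across all classes of photosystem gene. Of the 39 genes with islands in all 4 libraries, 37 had a negative log2 fold change, with a median of -0.48, against a median of -0.03 over the 14856 genes tested that had islands in all 4. At 27 of the 40 genes both apex t0 values were below both leaf values and at 0 both were above; among all 17588 genes tested 24.5% lay wholly lower and 22.6% wholly higher. The median fold change was -0.42 for the LHCB genes, -0.57 for the LHCA genes, -0.45 for photosystem I and -0.45 for photosystem II.

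In the limma fit 6 of the 40 genes passed an adjusted p of 0.05, all 6 lower in apex t0, where 8.05% of all genes tested were called, 4.25% lower and 3.8% higher. These were LHCB2.1, LHCB2.3, LHCA2, PSAH1, PSBO2 and PSBQ2. With the replicate number as a block, which uses the shared handling of same-numbered libraries, 18 of the 40 were called lower, where 13.6% of all genes tested were called in either direction and 7.44% lower. The block kept all 6 and added LHCB2.2, LHCB5, LHCA1, LHCA3, LHCA4, LHCA5, PSAE1, PSAH2, PSAK, PSBO1, PSBP1 and PSBS, with limma adjusted p between 0.0188 and 0.0472. The count depended on single libraries: it was 0 without leaf replicate 1, 16 without leaf replicate 2, 1 (LHCB2.3) without either apex t0 replicate, 2 without either apex t2 replicate and 4 without either inflorescence replicate. Of the alternatives tried on each gene, 8 lost the call of LHCA2 and of PSBQ2, 6 that of PSAH1 and of PSBO2, 4 that of LHCB2.1 and 2 that of LHCB2.3. The p-values rest on the spread between 2 biological replicates per tissue, pooled over the 4 tissues.

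**Figure D2:**
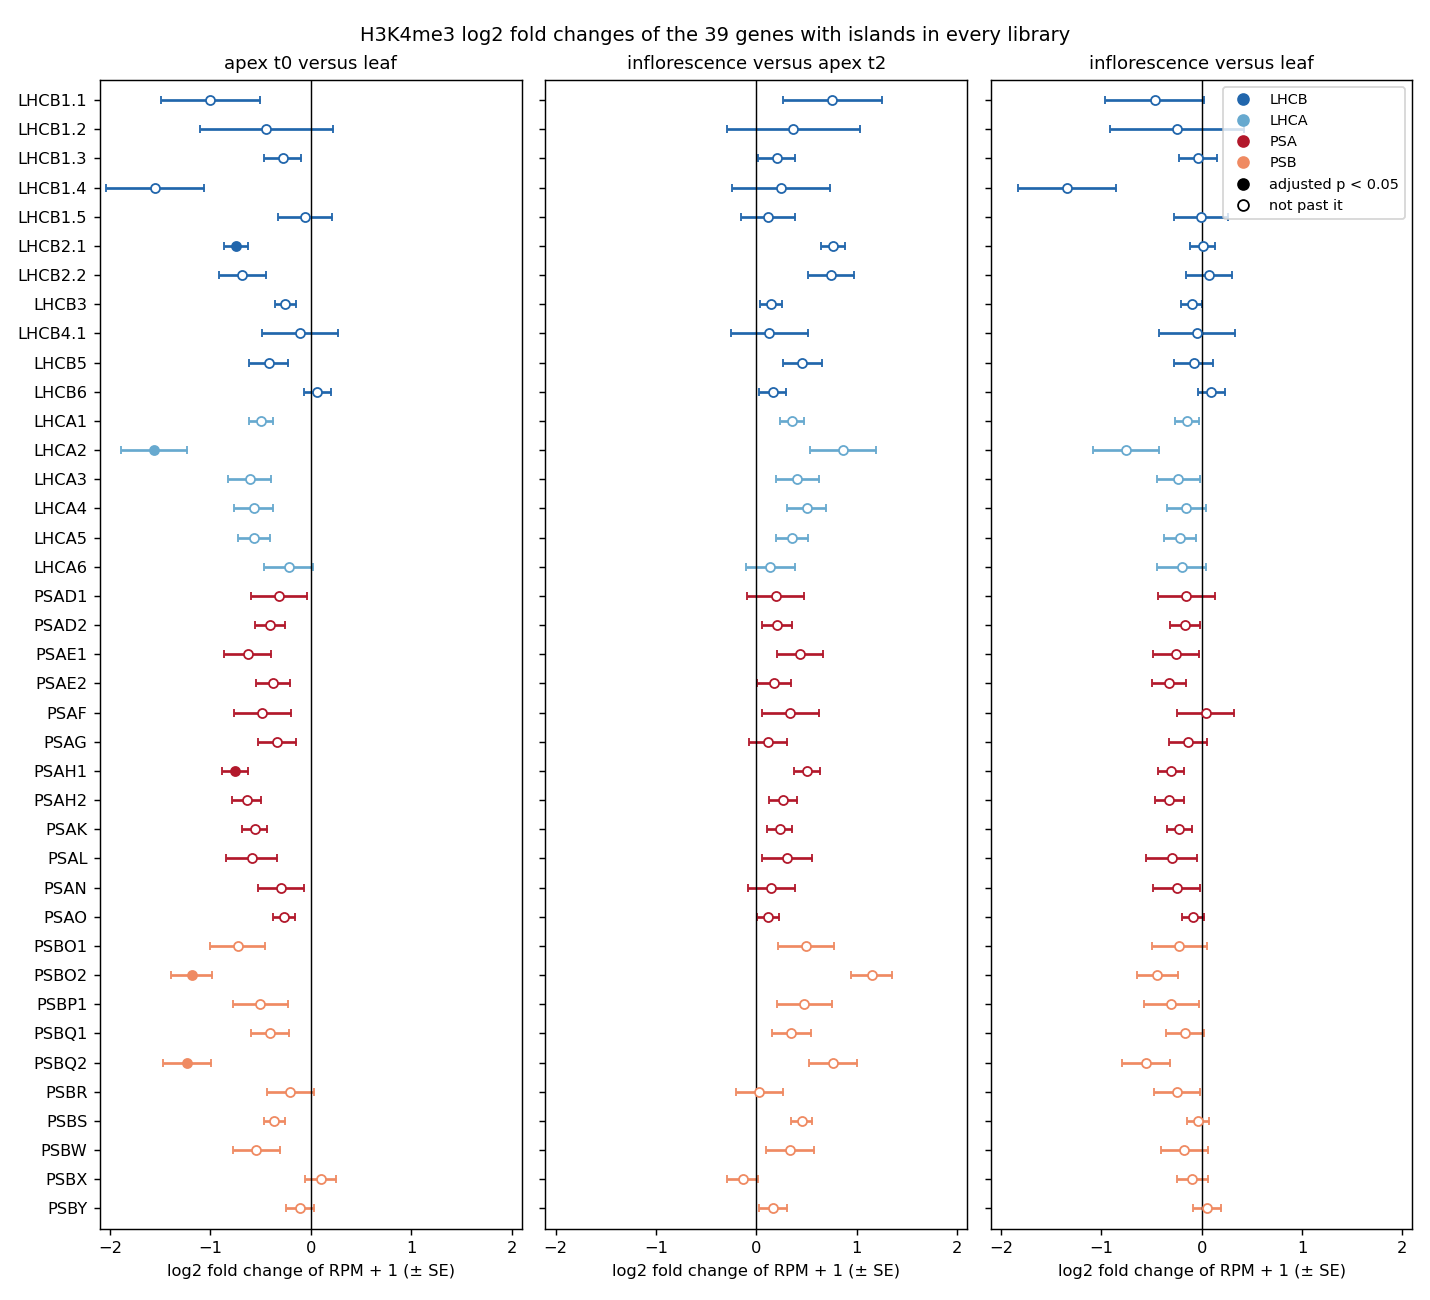
Log2 fold changes of H3K4me3 with standard errors (horizontal axis) for the 39 genes with islands in every library, in 3 comparisons with the group named first on top of the ratio. Filled points passed an adjusted p of 0.05 in limma; most genes lie left of 0 for apex t0 versus leaf and right of 0 for inflorescence versus apex t2.

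The LHCB1 and LHCB2 proteins form the major trimeric light-harvesting complex of photosystem II. LHCB2.3 (AT3G27690) had no H3K4me3 island in any of the 4 apex libraries. It had 19.9 and 45.5 RPM in the inflorescence replicates and 46.5 and 43.1 RPM in leaf, with 50.5 to 81.8% of its body covered there. No fold is given against tissues without an island, and the limma adjusted p of 0.00875 for apex t0 against leaf counts both missing islands as 0 RPM, so that apex t0 adds no spread. LHCB2.3 could be tested only through its inflorescence and leaf islands, which fixed the direction of the call. With islands of at least 2-fold enrichment alone, this adjusted p was 0.131, and without leaf replicate 1 it was 0.0592.

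LHCB2.1 (AT2G05100) had 41.7 and 38.3 RPM of H3K4me3 in apex t0, 36.3 and 43.4 RPM in apex t2, 65.8 and 70.4 RPM in inflorescence, and 68.0 and 67.4 RPM in leaf. The apex values did not overlap those of the other tissues. Its log2 fold change in apex t0 against leaf was -0.75 ± 0.12 (SE, n = 2 libraries per tissue; limma adjusted p = 0.0169). Its near copy LHCB2.2 (AT2G05070) had 38.5 and 37.6 RPM in apex t0, 32.6 and 45.2 RPM in apex t2, 56.8 and 74.4 RPM in inflorescence, and 52.9 and 72.0 RPM in leaf, a log2 fold change of -0.68 ± 0.23 in apex t0 against leaf (limma adjusted p = 0.149, and 0.0434 with the block).

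All 5 LHCB1 genes had negative estimates in apex t0 against leaf and none was called. LHCB1.4 (AT2G34430) had 14.2 and 10.54 RPM in apex t0, 11.6 and 12.2 RPM in apex t2, 12.3 and 16.6 RPM in inflorescence, and 42.1 and 34.0 RPM in leaf. Islands covered 30.5% of its body in all 6 apex and inflorescence libraries, against 85.2% and 76.2% in the leaf replicates. The difference between apex t0 and leaf, -1.55 ± 0.49 in log2 (SE, n = 2 libraries per tissue), missed the threshold (limma adjusted p = 0.125). Its neighbour LHCB1.5 (AT2G34420) had 54.9 and 60.1 RPM in apex t0 against 48.5 and 74.0 RPM in leaf, with overlapping replicates and the whole body covered in every library. LHCB1.1 (AT1G29920) had 24.5 and 23.4 RPM in apex t0 against 37.3 and 64.0 RPM in leaf, while LHCB1.3 (AT1G29930), next to it on chromosome 1, had 75.3 and 61.2 RPM against 95.1 and 71.7 RPM. In 2 of the 5 genes, LHCB1.1 and LHCB1.4, all apex t0 values lay below leaf.

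Reads from such near-identical copies can be assigned to the wrong gene or dropped, which these lists do not show. The control reads per kb of the islands over LHCB1 genes were 0.808 to 1.45 times the median island of their library, those over LHCB2 genes 0.847 to 1.24 times, and those over the other members 0.647 to 1.27 times.

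The other 4 LHCB genes of the set encode the trimer protein LHCB3 and the minor antenna proteins CP29 (LHCB4.1), CP26 (LHCB5) and CP24 (LHCB6). The minor antenna proteins link the trimers to the core. Over these 4 genes the median log2 fold change in apex t0 against leaf was -0.18. LHCB5 (AT4G10340) had 127 and 103.5 RPM in apex t0, 115 and 96.5 RPM in apex t2, 152 and 138 RPM in inflorescence, and 175 and 135 RPM in leaf, so that apex t0 lay below leaf in every pairing. LHCB6 (AT1G15820) had 97.2 and 87.0 RPM in apex t0 against 96.9 and 79.7 RPM in leaf. It was 1 of the 2 genes of the 40 with a positive estimate, 0.07 ± 0.13 (SE, n = 2 libraries per tissue, limma adjusted p = 0.819). Its islands measured 7000 and 7200 bp in leaf against 3600 and 3800 bp in apex t0, and all reached neighbouring genes. Reads were spread evenly over an island, and what island length did to these values was not tested.

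All 6 LHCA genes, for the antenna belt of photosystem I, had negative estimates in apex t0 against leaf, and in 5 of them the replicates did not overlap. LHCA2 (AT3G61470) had 49.0 and 34.9 RPM in apex t0, 43.4 and 36.4 RPM in apex t2, 88.4 and 60.5 RPM in inflorescence, and 165 and 93.4 RPM in leaf. Both apex tissues were below both wild type tissues, and inflorescence was below leaf. The log2 fold change in apex t0 against leaf was -1.56 ± 0.33 (SE, n = 2 libraries per tissue; limma adjusted p = 0.0421), the largest drop among the members with islands in all libraries. Islands covered 41.4% of LHCA2 in every apex library, 72.5% and 62.1% in inflorescence, and 93.2% and 77.0% in leaf. LHCA4 (AT3G47470), the gene with the highest level in this subgroup, had 98.5 and 72.2 RPM in apex t0, 82.8 and 75.8 RPM in apex t2, 113 and 113 RPM in inflorescence, and 143 and 111 RPM in leaf. LHCA6 (AT1G19150), a minor antenna protein that joins photosystem I to the NDH complex, had the smallest difference at -0.22 ± 0.24.

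The photosystem I subunits were lower in apex t0 at all 12 genes by the sign of the estimate and at 8 genes in every pairing. PSAH1 (AT3G16140) encodes a subunit at which the light-harvesting complex docks during state transitions. It had 60.7 and 61.3 RPM in apex t0, 56.7 and 61.2 RPM in apex t2, 80.3 and 87.6 RPM in inflorescence, and 115 and 93.7 RPM in leaf. The 3 levels were separate: apices lowest, inflorescence between, leaf highest. The log2 fold change in apex t0 against leaf was -0.76 ± 0.13 (SE, n = 2 libraries per tissue; limma adjusted p = 0.0188). Its copy PSAH2 (AT1G52230), with 36.5 and 40.04 RPM in apex t0 against 66.0 and 54.6 RPM in leaf, and PSAK (AT1G30380), which helps attach the antenna, with 47.9 and 50.2 RPM against 80.5 and 65.5 RPM, lay just outside the threshold (limma adjusted p = 0.0509 and 0.0512).

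PSAF (AT1G31330) had 108 and 63.4 RPM in apex t0, 99.8 and 89.2 RPM in apex t2, 136 and 105 RPM in inflorescence, and 131 and 103.8 RPM in leaf, with overlap between apex t0 and leaf. PSAE2 (AT2G20260) had 47.2 and 36.9 RPM in apex t0, 39.4 and 36.6 RPM in apex t2, 45.6 and 40.7 RPM in inflorescence, and 58.8 and 50.1 RPM in leaf. Leaf was the highest tissue for PSAE2, by less than the threshold asks (limma adjusted p = 0.256 for apex t0 against leaf).

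Among the photosystem II subunits the 2 genes called lower in apex t0 both encode extrinsic proteins of the oxygen-evolving complex. PSBO2 (AT3G50820), a copy of the manganese-stabilizing protein, had 33.6 and 40.3 RPM in apex t0, 28.0 and 27.1 RPM in apex t2, 61.8 and 62.9 RPM in inflorescence, and 103.8 and 69.5 RPM in leaf. Its log2 fold change in apex t0 against leaf was -1.19 ± 0.20 (SE, n = 2 libraries per tissue; limma adjusted p = 0.0206). PSBO1 (AT5G66570), the other copy, had 93.5 and 75.0 RPM in apex t0 against 180 and 108 RPM in leaf (limma adjusted p = 0.183, and 0.0334 with the block). PSBQ2 (AT4G05180), for a protein that helps retain calcium and chloride at the complex, had 55.2 and 44.8 RPM in apex t0, 51.3 and 42.9 RPM in apex t2, 86.2 and 75.3 RPM in inflorescence, and 149 and 94.5 RPM in leaf. Its log2 fold change was -1.24 ± 0.24 (SE, n = 2 libraries per tissue; limma adjusted p = 0.0306). In both genes apices were lowest and leaf highest with no overlap.

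PSBS (AT1G44575) had 86.7 and 83.7 RPM in apex t0, 75.9 and 80.4 RPM in apex t2, 108 and 106 RPM in inflorescence, and 115 and 105 RPM in leaf, so that inflorescence overlapped leaf while both apices lay below. PSBR (AT1G79040) had 79.4 and 60.4 RPM in apex t0, 68.2 and 63.6 RPM in apex t2, 71.2 and 63.6 RPM in inflorescence, and 99.7 and 64.1 RPM in leaf, with overlap throughout. PSBX (AT2G06520), a small membrane subunit, was the other gene with a positive estimate, at 51.4 and 41.8 RPM in apex t0 against 42.6 and 43.8 RPM in leaf (limma adjusted p = 0.750). Its island measured 3400 and 1600 bp in the leaf replicates against 1200 bp in both apex t0 libraries, and always reached a neighbouring gene. The part of island length was not tested.

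The difference between apex t0 and leaf had a part in the length marked and a part in the reads per marked kb. The covered share was smaller in both apex t0 replicates than in both leaf replicates at 18 of the 40 genes and larger at 0, against 9.53% and 16.2% of all genes tested. The median difference in covered share was -9.51 percentage points over the 40 genes and 1.13 points over all genes tested. It was -13.4 points for photosystem II, -12.1 for LHCA, -8.52 for LHCB and -6.65 for photosystem I. Per covered kb the median log2 fold change of the members was -0.27, against -0.09 over all genes, and no member passed the threshold on that scale, on which 97 genes in all did. Members that islands covered completely in all tissues, such as PSAD2 and PSAG, could not differ in covered share. Their islands also reached neighbouring genes, so their values moved with the island bounds and with reads over the neighbours. The PSAD2 island measured 4800 bp in leaf replicate 1 and 2200 bp in leaf replicate 2, against 2400 bp in both apex t0 libraries. PSAD2 (AT1G03130) had 44.6 and 43.6 RPM in apex t0 against 67.5 and 51.2 RPM in leaf, with no overlap. PSAG (AT1G55670) had 46.6 and 39.4 RPM in apex t0 against 64.7 and 45.6 RPM in leaf, with overlap.

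**Figure D3:**
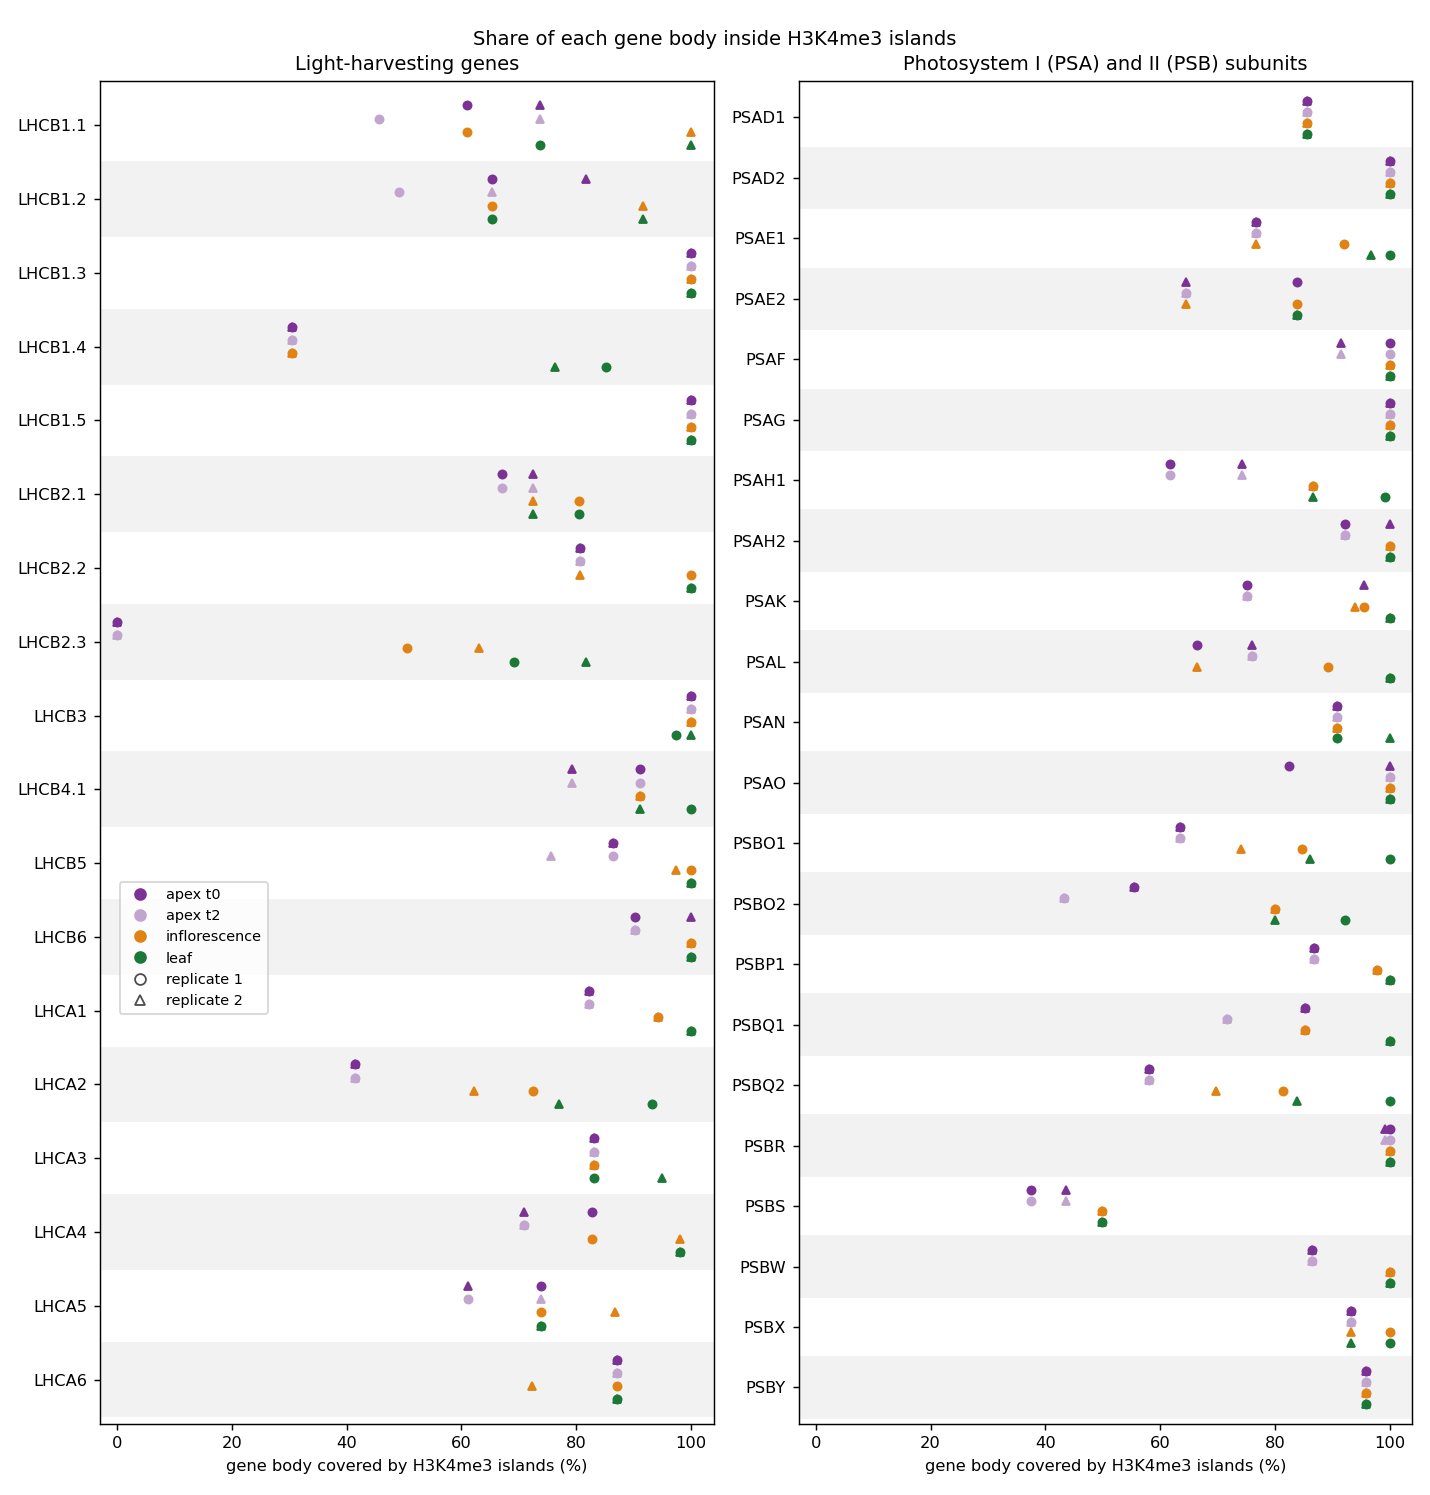
Share of each gene body inside H3K4me3 islands (percent, horizontal axis) for the 40 genes in every library, with colours for tissues and symbols for replicates. Islands end on a grid of 200 bp, so values repeat; LHCB1.4 is at 30.5% in all apex and inflorescence libraries and above 76% in leaf.

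The comparison of apex t2 with apex t0 asks how H3K4me3 differed 2 days after dexamethasone. The samples hold no untreated or mock-treated apex of that day, so the treatment and 2 days of growth cannot be told apart. In the limma fit none of the 40 genes passed the threshold, none had an unadjusted p under 0.05, and none was called with the replicate block. Over all 17588 genes 0 were called, and 0.881% had an unadjusted p under 0.05. The estimates were negative at 27 genes and positive at 12, with a median of -0.05. At 4 genes both apex t2 values were below both apex t0 values and at 2 they were above, against 8.6% and 10.7% of all genes. The covered share was smaller in every pairing at 2 genes and larger at 0, against 3.54% and 1.36% of all genes. The lowest unadjusted p was that of PSBO2 at 0.0950, with an estimate of -0.40 ± 0.20. LHCB2.3 had no island at either time.

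Inflorescence was compared with apex t2 as the next step along flower development. H3K4me3 was higher in inflorescence at 38 of the 39 genes with islands in all 4 libraries, by a median of 0.34 in log2, against a median of 0.00 over all such genes. At 31 of the 40 genes both inflorescence values exceeded both apex t2 values and at 0 they were lower, against 17.4% and 17.8% of all genes tested. The medians were 0.40 for photosystem II, 0.38 for LHCA, 0.25 for LHCB and 0.22 for photosystem I. The covered share was larger in every pairing at 16 of the 40 genes and smaller at 0, against 5.13% and 13.5% of all genes.

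In the limma fit LHCB2.3 alone of the 40 genes passed the threshold, higher in inflorescence, where 1.17% of all genes were called, 0.751% higher and 0.415% lower. Of the 40 genes 10 had an unadjusted p under 0.05, against 7.04% of all genes. With the replicate block 0 members were called, against 0.722% of all genes. It had no island in apex t2 and islands in both inflorescence replicates, at the values given above, so the direction was again fixed by which genes could be tested (limma adjusted p = 0.0468, and 0.0615 with the block). That call was also lost without any 1 of the 8 libraries, with adjusted p between 0.0660 and 0.362. PSBO2, at 1.15 ± 0.20 in log2 (SE, n = 2 libraries per tissue; limma adjusted p = 0.0745), and LHCB2.1, at 0.76 ± 0.12 (limma adjusted p = 0.0554), were closest to the threshold among the rest.

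Inflorescence compared with leaf, both of wild type, gave smaller differences. The estimate was negative at 35 of the 40 genes, with a median of -0.19 in log2 against -0.01 over all genes with islands in all 4 libraries. At 10 genes both inflorescence values were below both leaf values and at 0 they were above, against 19.1% and 18.3% of all genes, so the share wholly below was close to the background. The covered share was smaller in every pairing at 11 of the 40 genes and larger at 0, against 9.17% and 7.18%. In the limma fit 0 of the 40 genes passed the threshold, where 4.08% of all genes were called, 2.15% higher and 1.93% lower. LHCB1.4 alone had an unadjusted p under 0.05, against 14.4% of all genes, at -1.35 ± 0.49 in log2 (SE, n = 2 libraries per tissue; limma adjusted p = 0.286). With the replicate block 1 gene, LHCA2, was called lower in inflorescence, at -0.75 ± 0.14 (limma adjusted p = 0.0477), where 5.51% of all genes were called and 2.6% lower. Without the block its adjusted p was 0.380. The count was 3 without leaf replicate 2, namely PSBW, PSBO2 and PSAN, all lower in inflorescence. The comparisons above share libraries with each other, so their values are given side by side and not as independent results.

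The replicate numbers were then taken apart, since leaf replicate 1 was the shallowest H3K4me3 library and also the one with the highest values at many members. It exceeded leaf replicate 2 at 34 of the 40 genes with a median log2 ratio of 0.37, against a median of -0.05 over all genes tested. In apex t0 replicate 1 was higher at 31 of the 40 genes, by a median of 0.16. Within replicate 1 apex t0 was lower than leaf at 35 of the 40 genes with a median log2 ratio of -0.56. Within replicate 2 it was lower at 38 of the 40 genes with a median of -0.38. The medians over all genes were 0.00 and -0.04.

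Inflorescence against apex t2 gave a median of 0.34 within replicate 1 and 0.31 within replicate 2, higher at 38 of the 40 genes in each. Inflorescence against leaf gave -0.32 within replicate 1, lower at 35 of the 40 genes, but -0.02 within replicate 2, lower at 23 and higher at 17. That difference rested on replicate 1 and was not seen in replicate 2. Apex t2 against apex t0 gave -0.13 within replicate 1 and 0.05 within replicate 2, with opposite signs.

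By class, apex t0 against leaf within replicate 1 gave a median of -0.70 for photosystem II, -0.58 for photosystem I, -0.57 for LHCA and -0.39 for LHCB. Within replicate 2 the medians were -0.25 for photosystem II, -0.32 for photosystem I, -0.58 for LHCA and -0.59 for LHCB. The LHCA median kept its size, while the order of the other classes turned round between replicates. No ranking of the classes therefore held in both replicates.

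**Figure D4:**
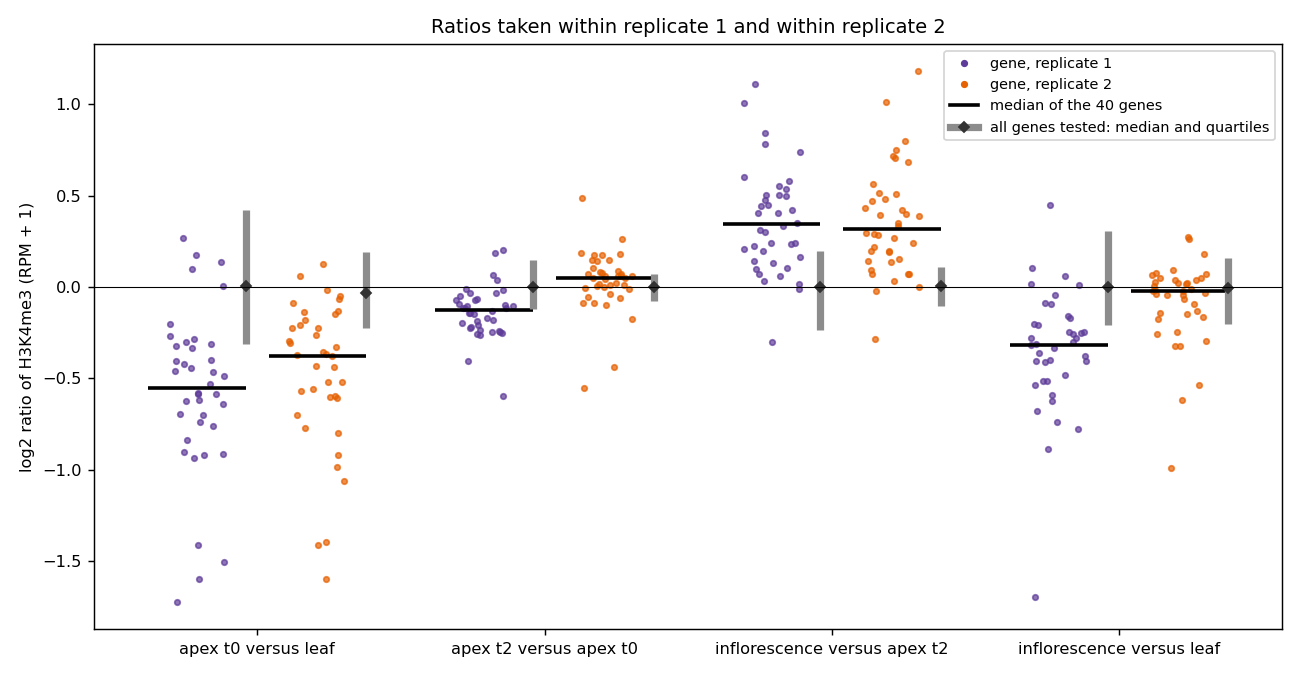
Log2 ratio of H3K4me3 (vertical axis) for each gene except LHCB2.3 in 4 comparisons, taken within replicate 1 and within replicate 2, with black bars at the median of the 40 genes and grey bars from the lower to the upper quartile of all genes tested. Most members lie below 0 in both replicates for apex t0 versus leaf and above 0 in both for inflorescence versus apex t2. Their median is near 0 in replicate 2 for inflorescence versus leaf.

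H3K27me3 was rare on these genes. No island of any size touched 32 of the 40 genes in any library, and 7 genes had an island over at least 200 bp in at least 1 library. The mark was present in both replicates at 2 genes in apex t0, 5 in apex t2, 0 in inflorescence and 0 in leaf, where 28.7%, 28.7%, 26.0% and 24.1% of all nuclear genes were so marked. Of the 40 genes 5 could be tested: LHCB1.1, LHCB2.2, LHCB2.3, LHCA6 and PSBQ2. The islands over the members were weak. The authors' own fold over control ranged from 1.32 to 2.49 over the 23 islands with at least 200 bp of overlap, which placed them between the 0.233rd and the 33.5th percentile of their libraries. Only 5 islands, over LHCB2.2 and PSBQ2, reached a fold of 2.

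LHCB1.1 had 42.3 and 42.3 RPM of H3K27me3 in apex t0 and 36.7 and 38.98 RPM in apex t2, over 87.1% of its body, and no island in either replicate of inflorescence or leaf. The island lay on chromosome 1 at 10474201 to 10475800 in replicate 1 and at 10474001 to 10475800 in replicate 2 of both apex tissues (TAIR10), and it reached no other gene. Its fold over control was 1.47 and 1.57 in apex t0 and 1.32 and 1.44 in apex t2, with the control reads of apex t0 and apex t2 being the same. PSBQ2 had 43.7 and 75.2 RPM in apex t0 and 27.6 and 63.5 RPM in apex t2, over 58.1% and 97.5% of its body in apex t0 and 34.9% and 97.5% in apex t2, and again no island in inflorescence or leaf. The island of apex t0 replicate 2 ran from 2668001 to 2673200 on chromosome 4 and also covered AT4G05170.

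Both genes were called higher in apex t0 than in leaf, where 9.57% of all 8623 genes tested were called and 5.57% higher (limma adjusted p = 0.00248 for LHCB1.1 and 0.0041 for PSBQ2). Both genes entered the test through their apex islands alone, so the direction of these calls was fixed by which genes could be tested, and the calls are given as a description. The same holds for their apex t0 values lying above leaf, as at 30.3% of all genes tested. With the replicate block both stayed called and 0 members were called lower, where 10.2% of all genes were called and 4.51% lower. Both were called lower in inflorescence than in apex t2, where 3.27% were called and 1.68% lower (adjusted p = 0.00726 and 0.0131). In each comparison 1 side has no island and enters as 0 RPM in both replicates, which adds no spread, the direction is fixed as said, and no fold is given. With islands of at least 2-fold enrichment alone neither gene could be tested, since neither then had islands in both replicates of a tissue. Without either apex t2 replicate the calls for inflorescence against apex t2 were lost, with adjusted p between 0.0513 and 0.0884. No member was called in apex t2 against apex t0 or in inflorescence against leaf, where 0 members had an unadjusted p under 0.05 and 0.0% and 5.14% of all genes were called.

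Over the LHCB2 genes H3K27me3 was present in both replicates only at LHCB2.2 and LHCB2.3 in apex t2, and otherwise in single replicates. LHCB2.2 had 0 and 68.2 RPM in apex t0, 46.5 and 68.3 RPM in apex t2, 0 and 78.7 RPM in inflorescence, and no island in leaf, and its islands also reached AT2G05060. LHCB2.3 had 0 and 24.2 RPM in apex t0, 19.8 and 24.5 RPM in apex t2, 0 and 34.2 RPM in inflorescence, and no island in leaf. LHCB2.1 had 39.8 RPM in apex t0 replicate 2 and 31.5 RPM in apex t2 replicate 2 and no island elsewhere. Where a single replicate of these 3 genes was marked, it was replicate 2. The H3K27me3 libraries of replicate 2 held 13745836 to 19379225 island reads, against 3779918 to 10852646 in replicate 1, and the part of depth was not tested. LHCA6 had 0 and 19.1 RPM in apex t0, 20.8 and 17.5 RPM in apex t2, none in inflorescence, and 30.1 and 0 RPM in leaf. PSAE1 had 24.0 RPM in apex t0 replicate 1 alone, and PSAH2 was touched over less than 200 bp in apex t0 replicate 2.

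**Figure D5:**
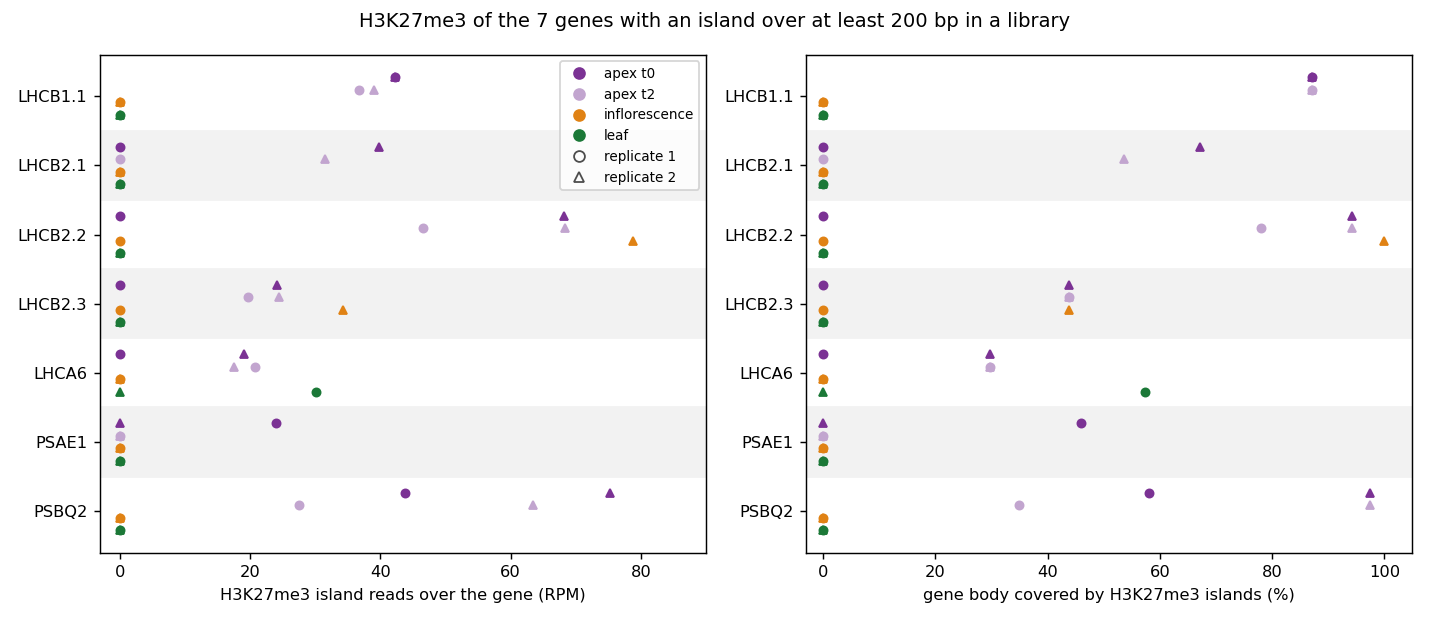
H3K27me3 of the 7 genes with an island over at least 200 bp in some library, as island reads over the gene (RPM, left) and as covered share of the body (percent, right), with colours for tissues and symbols for replicates. LHCB1.1 and PSBQ2 are marked in all 4 apex libraries and in no inflorescence or leaf library.

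H3K4me3 and H3K27me3 were both present in both replicates at 2 genes in apex t0 (LHCB1.1 and PSBQ2), at 4 in apex t2 (LHCB1.1, LHCB2.2, LHCA6 and PSBQ2), and at 0 in inflorescence and leaf. Over all nuclear genes the shares with both marks were 5.99% in apex t0, 5.96% in apex t2, 4.35% in inflorescence and 3.36% in leaf. The members' counts in the apices lay near those shares and are no result about the members. LHCB2.3 in apex t2 was the single case of H3K27me3 in both replicates with no H3K4me3 island. Bulk chromatin does not show whether marks seen together lie on the same chromosomes or in different cells.

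Other genes of photosynthesis were taken from 4 lists. Over all genes tested for H3K4me3 4.25% were called lower in apex t0 than in leaf, beside which the counts below stand. Of 10 carbon fixation genes 3 were called lower in H3K4me3 in apex t0 than in leaf and 0 higher, with a median log2 fold change of -0.98: GAPB, a subunit of the chloroplast glyceraldehyde-3-phosphate dehydrogenase, RCA, the activase of Rubisco, and CFBP1, the chloroplast fructose-bisphosphatase. RCA had 67.4 and 64.5 RPM in apex t0 against 244 and 192 RPM in leaf (limma adjusted p = 0.00732). GAPB had 43.8 and 39.9 RPM in apex t0, 38.4 and 41.96 RPM in apex t2, 110 and 88.9 RPM in inflorescence, and 132 and 126.1 RPM in leaf, and it was called lower in apex t0 against leaf (adjusted p = 0.00355) and higher in inflorescence against apex t2 (adjusted p = 0.0326). CFBP1 had 30.0 and 20.7 RPM in apex t0 against 140 and 75.1 RPM in leaf (adjusted p = 0.0397). Of 15 alternatives, 9 lost the GAPB call of inflorescence against apex t2 (limma adjusted p from 0.0559 to 0.994), among them leaving out any 1 library. For CFBP1 6 of 15 lost the call of apex t0 against leaf (0.0738 to 0.173), among them leaving out leaf replicate 1 or any apex replicate. Per covered kb the calls of RCA and GAPB were lost as well (0.103 and 0.0777).

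Of 9 genes of electron transfer and ATP synthase 1 was called lower and 0 higher, with a median of -0.24: FNR2, a ferredoxin-NADP reductase, at 55.0 and 61.3 RPM in apex t0 against 117 and 121 RPM in leaf (limma adjusted p = 0.0139). Of 12 chlorophyll synthesis genes 11 could be tested, 1 was called lower and 0 higher, and the median was -0.14. That gene was CAO, the oxygenase that makes chlorophyll b, with 58.1 and 56.7 RPM in apex t0 against 114 and 90.4 RPM in leaf (adjusted p = 0.0202). The CAO call was lost in 6 of 15 alternatives (limma adjusted p from 0.0612 to 0.387), among them without leaf replicate 1 or any apex replicate. The FNR2 call was lost in 4 of 15 (0.0574 to 0.288), among them without leaf replicate 1 or either apex t0 replicate.

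Of 13 light and greening regulators 2 were called lower in H3K4me3 and 0 higher, with a median of -0.75 over the 10 with islands in all 4 libraries. GLK2, a transcription factor that promotes photosystem gene expression, had 79.5 and 84.3 RPM in apex t0 against 146 and 150 RPM in leaf (limma adjusted p = 0.0124). CGA1, a GATA factor of greening, had no H3K4me3 island in apex or inflorescence libraries against 21.3 and 76.1 RPM in leaf (adjusted p = 0.0139). CGA1 could be tested only through leaf, which fixed the direction, and its missing islands add no spread. Both calls were lost in 4 alternatives, with limma adjusted p from 0.0573 to 0.216 for GLK2 and from 0.0635 to 0.104 for CGA1, among them without leaf replicate 1 or either apex t0 replicate, and for CGA1 also without leaf replicate 2. Of these regulators 4 could be tested for H3K27me3 and 3 were called higher in apex t0 than in leaf, against 5.57% of all genes tested for that mark. GLK1, a close relative of GLK2, had 328 and 307 RPM of H3K27me3 in apex t0, 338 and 323 RPM in apex t2, 255 and 266 RPM in inflorescence, and 128 and 135 RPM in leaf (adjusted p = 0.00163). GLK2 had 23.8 and 35.3 RPM in apex t0 and no island in leaf (adjusted p = 0.00501). The missing leaf islands add no spread, GLK2 was testable through the other tissues alone, and the call was lost without apex t0 replicate 2 (limma adjusted p = 0.0565) and with islands of at least 2-fold enrichment (0.584). GNC, a relative of CGA1, had 268 and 228 RPM in apex t0 against 158 and 141 RPM in leaf (adjusted p = 0.0357). The GNC call was lost in 10 of 15 alternatives (limma adjusted p from 0.0523 to 0.213), among them leaving out any 1 library. GLK1, GLK2 and GNC were also called higher in H3K27me3 in inflorescence than in leaf, against 3.53% of all genes tested. That call was lost in 1 of 15 alternatives for GLK1, 1 of 14 for GLK2 and 11 of 15 for GNC. For GLK2 the missing leaf islands again add no spread. For H3K4me3 in the other comparisons, GNC was called higher in inflorescence than in apex t2 (limma adjusted p = 0.0355). GLK2 and CGA1 were called lower in H3K4me3 in inflorescence than in leaf (limma adjusted p = 0.0124 and 0.0216). The GNC call was lost in 11 of 14 alternatives (limma adjusted p up to 0.963), among them leaving out any 1 library. The CGA1 call was lost in 6 of 14 (up to 0.144), without either leaf replicate, either apex t2 replicate, apex t0 replicate 2 or inflorescence replicate 2. The GLK2 call was lost in 4 of 15 (up to 0.305), among them without leaf replicate 1 or either apex t2 replicate. GNC and CGA1 each lacked islands in 1 of the tissues compared, with the limits given for LHCB2.3.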

How the data were processed

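H3K4me3 and H3K27me3 were profiled by ChIP-seq in apex t0, apex t2, inflorescence and leaf, with 2 replicates each. The submitters' processing notes name the TAIR10 build, SICER 1.1, BWA 0.6.2-r126, bedtools 2.17.0-97, CASAVA 1.8.2, Picard 1.93 and SAMtools 0.1.19; which step each tool served, and the window, gap and threshold settings, are not given in the sources used here. The authors deposited 1 island list per library: genomic position, counts of ChIP and control reads, fold enrichment and the p-values of the caller. The 6 input samples were not used as samples.

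From these, reads were placed on gene bodies of the RefSeq annotation (TAIR10.1 names) in proportion to the overlapping length, assuming even spread within an island, and strand was not used. Libraries were scaled to RPM by a trimmed mean of log ratios. Tests were made with limma 3.58.1 in R 4.3.3 on log2(RPM + 1), with stage as the term, a mean trend and robust variances over all 8 libraries of a mark. Genes tested had islands over at least 200 bp in both replicates of at least 1 stage: 17588 for H3K4me3 and 8623 for H3K27me3. P-values were two-sided and Benjamini-Hochberg adjusted over all of these. Sums over separately called islands move with how much was called, so covered shares stand beside them.

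The labels' protocols tie each replicate number to 1 sonication, antibody lot and library procedure, so the numbers pair the samples. The replicate differences of 2 stages correlated at 0.231 to 0.445 for H3K4me3 and 0.155 to 0.449 for H3K27me3. Alternatives were other scalings, a pseudocount of 5, other gene filters, islands of at least 2-fold, density per covered kb, the replicate block and each library left out; ratios within a replicate number were added after seeing the data. Members and lists were chosen with earlier results of these data known. Members are named where they were called in any fit, carried H3K27me3 in both replicates of a stage, lacked H3K4me3 in a stage, or had the highest or lowest mean per kb of their subgroup, with up to 4 called genes per list. Further members named for copies, for estimates near the threshold or for covered share were chosen after their values were seen.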

Additional observations from a re-analysis of the deposited data

Results flagged for a closer look

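An island over the whole chloroplast genome was called in inflorescence H3K4me3 replicate 2 and in no other library. It held 288494 reads against 307386 control reads, a fold over control of 1.21 in the authors' list, and 1.65% of the island reads of that library. It was listed because it lies outside the nuclear genes compared in the report and above the calling threshold, and its source was not tested. Groups of 2 replicates are too small for a check of single outlying samples.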

How the results depend on the processing

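Without any 1 library, the members called ranged as follows. For H3K4me3 the count was 0 to 16 in apex t0 against leaf (6 in the report), 0 to 0 in apex t2 against apex t0, 0 to 0 in inflorescence against apex t2 (1 in the report) and 0 to 3 in inflorescence against leaf (0 in the report). For H3K27me3 it was 2 to 2, 0 to 0, 0 to 2 and 0 to 0 in the same order. All genes called ranged from 601 to 3089, 0 to 0, 0 to 2 and 69 to 1829 for H3K4me3, and from 617 to 1696, 0 to 11, 0 to 971 and 382 to 1282 for H3K27me3.

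Members wholly lower by H3K4me3 numbered 27 to 36 in apex t0 against leaf, 5 to 27 in apex t2 against apex t0, 0 to 2 in inflorescence against apex t2 and 14 to 31 in inflorescence against leaf, and those wholly higher 0 to 3, 3 to 21, 33 to 36 and 2 to 13; leaving out a library leaves fewer values to overlap. Over all genes tested the shares wholly lower ran from 34.2 to 40.1%, 20.1 to 36.3%, 26.8 to 42.9% and 30.8 to 37.4%, and those wholly higher from 32.1 to 41.0%, 21.5 to 39.3%, 24.9 to 40.8% and 31.6 to 37.7%. Members marked ranged from 39 to 39, 39 to 39, 40 to 40 and 40 to 40 for H3K4me3 in apex t0, apex t2, inflorescence and leaf, and from 3 to 6, 5 to 6, 0 to 2 and 0 to 1 for H3K27me3.

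With the replicate block 18 members and 2390 genes in all were called for H3K4me3 in apex t0 against leaf, 0 and 127 in inflorescence against apex t2, and 1 member in inflorescence against leaf; it changed no other member count. Per covered kb, which gives no value for genes without islands such as LHCB2.3 in the apices, no member was called: for H3K4me3 97, 0 and 1 genes in all in apex t0 against leaf, inflorescence against apex t2 and inflorescence against leaf, and for H3K27me3 19, 0 and 0. For H3K4me3 in inflorescence against apex t2, a pseudocount of 5 gave 0 members and 125 genes, and genes with an island in any library 0 and 21; the same gene filter gave 0 members and 57 genes for H3K27me3. With islands of at least 2-fold, the H3K27me3 member calls were 0 in both comparisons, as LHCB1.1 and PSBQ2 could not then be tested. Members marked in both replicates were 0 in apex t0 and 1 in apex t2, and 22 genes were called in apex t2 against apex t0. With islands over at least 50% of the body 2 members were marked in apex t2. The cause of these changes was not tested. No call of a named gene changed direction. The H3K27me3 libraries of replicate 1 held fewer island reads than those of replicate 2, and the part of depth in the weak islands was not tested.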
